A study of Homo sapiens with 34 samples.

Results

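The peroxiredoxin family and sulfiredoxin were followed at the level of mRNA in human U2OS cells in which NADPH production was perturbed. The members were taken by gene symbol, as the loci of the deposited expression tables named *PRDX1* to *PRDX6* and *SRXN1*. Their values were not the rule of choice, although earlier results of these data were known. All 7 members were found, each as 1 locus of its own among 28690 loci. All 7 also passed the expression filter, a mean of at least 1 FPKM (fragments per kilobase of transcript, scaled to the mapped reads) over all libraries, which 13979 loci passed.

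Both groups were *Bmal1*:*luc* U2OS cells, an osteosarcoma line that carries a luciferase reporter of the clock, synchronized with dexamethasone. Control cells received the solvent DMSO, and 6AN cells received 5 mM 6-aminonicotinamide, which inhibits the NADPH-producing enzymes of the pentose phosphate pathway. RNA-seq libraries were labelled every 4 hr from circadian time (CT) 0 to CT 44, with 12 libraries per condition and 1 library at each time point. Times are given as labelled, and the study's plots number the same series a day later, so the first label need not be the start of treatment. ChIP-seq of BMAL1, CLOCK, H3K9ac, H3K4me3 and input chromatin used 1 library each in control and 6AN cells at 24 hr. The line was a single established one, and the values describe its mRNA and chromatin, not the peroxiredoxin proteins or their oxidation.

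Peroxiredoxins are thiol peroxidases that reduce hydrogen peroxide through a reactive cysteine. The typical 2-Cys members *PRDX1*, *PRDX2* (both mainly cytosolic), *PRDX3* (mitochondrial) and *PRDX4* (of the endoplasmic reticulum) form a disulfide that thioredoxin reduces, and thioredoxin reductase recharges thioredoxin with NADPH. At high peroxide their cysteine is oxidized further to a sulfinic acid, and sulfiredoxin, the product of *SRXN1*, returns it to the active form using ATP. *PRDX5* is an atypical 2-Cys member and *PRDX6* a 1-Cys member that uses glutathione. Cycles of peroxiredoxin oxidation and reduction are a known marker of circadian time.

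The clock factors BMAL1 and CLOCK recognize the E-box CACGTG, and the redox-sensitive factor NRF2 recognizes antioxidant response elements. RefSeq promoter windows, 250 bases before to 50 after an annotated start (GRCh38.p14), were at hand for 5 members, as 6 windows. Those of 3 members are shown because *SRXN1*, *PRDX3* and *PRDX4* were the members whose ranges in control and 6AN cells did not overlap. Capitals mark CACGTG, which reads the same on both strands.

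*SRXN1*, chr20:653151-653450, minus strand: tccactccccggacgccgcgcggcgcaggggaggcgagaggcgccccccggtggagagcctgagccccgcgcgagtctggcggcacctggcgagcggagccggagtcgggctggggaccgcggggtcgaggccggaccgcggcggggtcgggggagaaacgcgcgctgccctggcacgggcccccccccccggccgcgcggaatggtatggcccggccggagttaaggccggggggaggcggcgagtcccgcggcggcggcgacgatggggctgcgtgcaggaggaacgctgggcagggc

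*PRDX3*, chr10:119178763-119179062, minus strand: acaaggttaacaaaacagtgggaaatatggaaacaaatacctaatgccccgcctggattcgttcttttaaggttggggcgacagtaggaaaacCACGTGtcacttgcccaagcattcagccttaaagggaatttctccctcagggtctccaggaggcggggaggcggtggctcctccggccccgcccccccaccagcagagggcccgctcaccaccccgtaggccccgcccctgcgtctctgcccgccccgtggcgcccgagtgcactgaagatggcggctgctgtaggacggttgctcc

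*PRDX4*, chrX:23667243-23667542, plus strand: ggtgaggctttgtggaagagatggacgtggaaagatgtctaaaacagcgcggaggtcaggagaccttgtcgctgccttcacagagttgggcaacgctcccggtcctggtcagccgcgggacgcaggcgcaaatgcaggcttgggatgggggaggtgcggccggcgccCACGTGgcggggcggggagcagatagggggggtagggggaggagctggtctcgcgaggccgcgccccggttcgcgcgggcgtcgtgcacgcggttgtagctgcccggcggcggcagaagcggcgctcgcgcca

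Counting the first transcribed base as 1, CACGTG began at position -157 of *PRDX3* and at position -83 of *PRDX4*. It was not in the windows of *SRXN1*, *PRDX2* or *PRDX5*. The same letters occurred in 7.26% of 35116 promoter windows of this length. The antioxidant element, searched as TGACNNNGC on both strands, was in none of the 6 windows and in 13.3% of all windows. These matches are letters only, and the shared BMAL1/CLOCK sites described last did not include *PRDX3* or *PRDX4*.

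Of 7 osteoblast-lineage markers 6 were expressed, and *COL1A2* was near 0 with a mean of 0.0330 FPKM in control cells. Markers of other cell types (*PTPRC*, *EPCAM*, *CDH1*, *PECAM1* and *ALB*) did not exceed 1.69 FPKM in any library. Among the line's own markers, 4 of the 6 expressed were lower in 6AN cells at all 12 time points, beside 20.4% of expressed loci. Their log2 ratios were -1.89 (*COL1A1*), -1.32 (*SPARC*), -0.65 (*ALPL*) and -0.29 (*VIM*). *SPP1* was higher at all 12 (0.71), beside 13% of expressed loci, and *RUNX2* had a log2 ratio of -0.01. The part of these markers in the results was not tested. The sum of FPKM over all loci ran from 975321 to 1089300 in control and from 1080810 to 1281610 in 6AN cells. The depth of the RNA-seq libraries is not known from FPKM, so no counting error is given.

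In control cells *PRDX1* was the most abundant member on this per-length scale, followed by *PRDX5*, with *SRXN1* the least abundant. *PRDX1* averaged 587 ± 83.1 FPKM (SD over time points, n = 12 libraries), *PRDX5* 338 ± 37.3, *PRDX2* 122 ± 8.10, *PRDX6* 120.5 ± 13.5, *PRDX4* 86.5 ± 7.67, *PRDX3* 80.7 ± 6.44 and *SRXN1* 25.8 ± 2.75. *PRDX1* and *PRDX5* each stood apart from the next gene in all 12 libraries, and the lowest value of each lay above the highest value of the next. *PRDX2* and *PRDX6* were not separated, since *PRDX2* was higher in only 7 of 12 control libraries, and *PRDX4* exceeded *PRDX3* in 9 of 12. *SRXN1* lay below every peroxiredoxin in every control library.

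The order changed at its lower end in 6AN cells. *PRDX1* (533 ± 49.1 FPKM) and *PRDX5* (256 ± 23.8) remained first and second, and *PRDX6* (114 ± 8.53) now exceeded *PRDX2* (104 ± 6.61) in 11 of 12 libraries. *PRDX3* (61.6 ± 4.05), *PRDX4* (57.5 ± 6.38) and *SRXN1* (53.8 ± 10.8) overlapped. *SRXN1* was above *PRDX4* in 5 of 12 6AN libraries and above *PRDX3* in 2 of 12, against 0 of 12 for both in control cells.

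**Figure D1:**
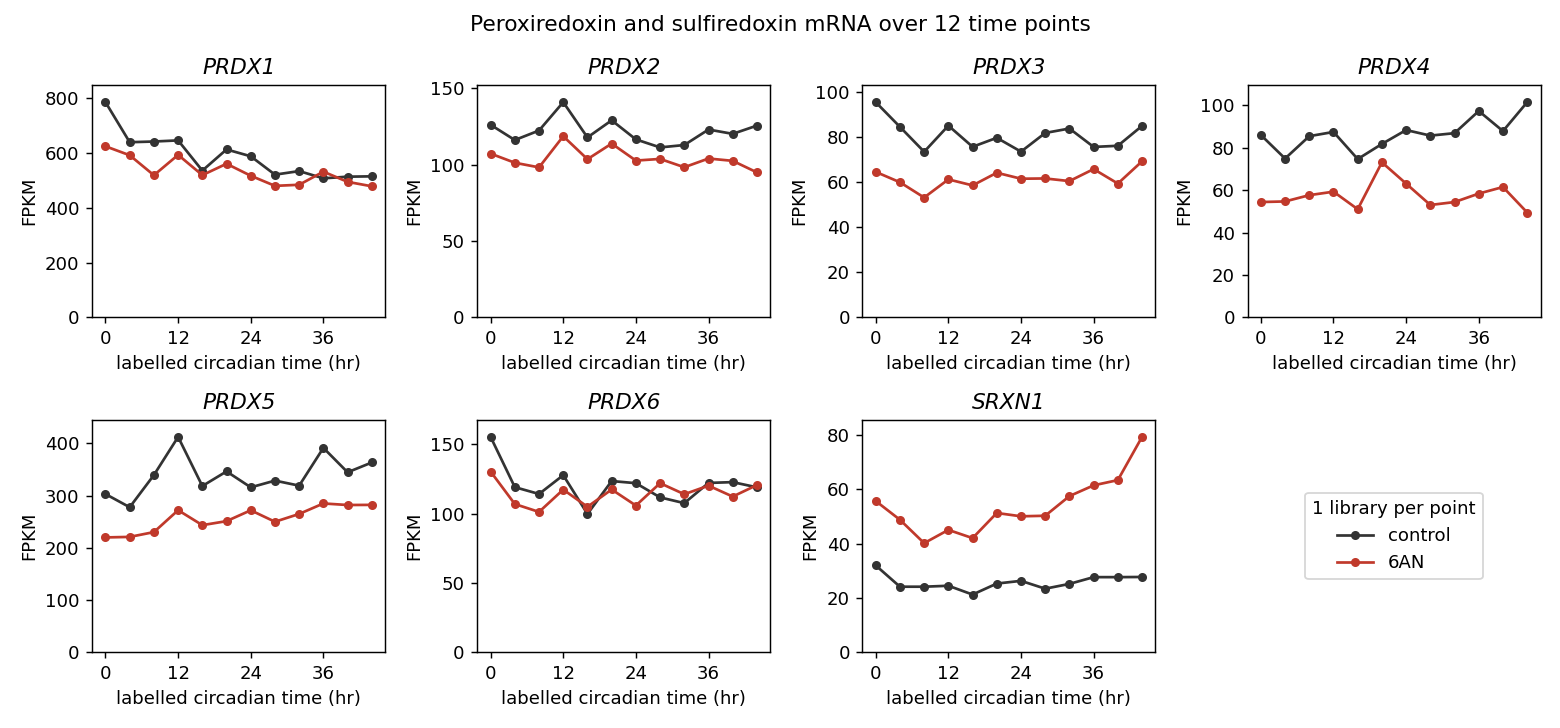
FPKM (y axis, from 0) against labelled circadian time in hr (x axis) for the 7 members, with 1 library per point, control in black and 6AN in red. *SRXN1* is higher in 6AN cells at every time point, with 40.2 to 79.4 FPKM against 21.3 to 32, while *PRDX3* and *PRDX4* are lower at every time point.

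*SRXN1* was the member with the largest difference between conditions, and the only one that was higher in 6AN cells at all time points. In control cells its lowest, median and highest values were 21.3 FPKM (CT 16), 25.2 and 32 (CT 0). In 6AN cells they were 40.2 FPKM (CT 8), 50.8 and 79.4 (CT 44). Every 6AN library lay above every control library. The mean was 2.09-fold that of control, a log2 ratio of 1.03 (jackknife SE over time points 0.0670, on log2 of FPKM plus 1). Ranges of 6AN lay above those of control for 5.89% of expressed loci, and 323 of the 13979 loci had a ratio at least as high.

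The 4 typical 2-Cys peroxiredoxins, which are the substrates of sulfiredoxin, did not share that direction. *PRDX4* had the largest decrease of the family. Its control values were 74.6 (CT 16), 86.4 (median) and 101 FPKM (CT 44), and its 6AN values were 49.5 (CT 44), 56.2 and 73.1 (CT 20). All 12 6AN libraries lay below the lowest control library, with a log2 ratio of -0.58 (SE 0.0614). The gap was narrow at CT 20 in 6AN cells, and the ranges of *PRDX4* overlapped once the ratios were centred on the median of all loci.

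*PRDX3* also had ranges that did not overlap. It ran from 73.4 (CT 8) through 80.6 to 95.3 FPKM (CT 0) in control cells and from 53.1 (CT 8) through 61.3 to 69.1 (CT 44) in 6AN cells. The log2 ratio was -0.39 (SE 0.0320), a mean change of -23.7%. Across all expressed loci, 10.3% had a 6AN range below that of control.

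The cytosolic members differed less. *PRDX2* ran from 111 through 121 to 141 FPKM in control and from 95.0 through 103 to 119 in 6AN cells, and was lower in 6AN cells at 12 of 12 time points with overlapping ranges (log2 ratio -0.23, SE 0.0210). *PRDX1* ran from 508 through 562 to 786 FPKM in control and from 479 through 519 to 625 in 6AN cells, and was lower at 11 of 12 time points (log2 ratio -0.14, SE 0.0332). The exception was CT 36, with 508 FPKM in control and 532 in 6AN cells.

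Of the members outside the typical 2-Cys class, *PRDX5* was lower at 12 of 12 time points. It ran from 278 (CT 4) through 334 to 413 FPKM (CT 12) in control and from 219.9 (CT 0) through 258 to 285 (CT 36) in 6AN cells, so that the upper end of 6AN reached the lower end of control (log2 ratio -0.40, SE 0.0344). *PRDX6* ran from 99.8 through 121 to 155 FPKM in control and from 101 through 116 to 130.4 in 6AN cells. It was lower at 8 time points and higher at 4, with a log2 ratio of -0.07 (SE 0.0361).

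Thus 4 of 7 members (*PRDX2* to *PRDX5*) were lower in 6AN cells at all 12 time points, beside 20.4% of expressed loci, and 1 of 7 (*SRXN1*) was higher at all 12, beside 13%. Among loci with a mean of at least 10 FPKM, which all members exceeded, these shares were 25.5% lower and 15.8% higher. The quartiles of the log2 ratio over all loci were -0.28 and 0.18, with a median of -0.04. *PRDX3*, *PRDX4* and *PRDX5* lay below the lower quartile and *SRXN1* above the upper one. These ratios are descriptions without a test, because the 2 tables were probably normalized separately by the authors. When each library was rescaled to the same FPKM total, the median of all loci moved by -0.16. *PRDX1* and *PRDX6* were then also lower at all 12 time points (34.6% of loci on this scale). The 6AN ranges of *PRDX2* and *PRDX5* also lay below those of control, but the share of all loci is not given on this scale. *SRXN1* kept 12 of 12 higher (6.15% of loci on this scale) with a log2 ratio of 0.84.

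**Figure D2:**
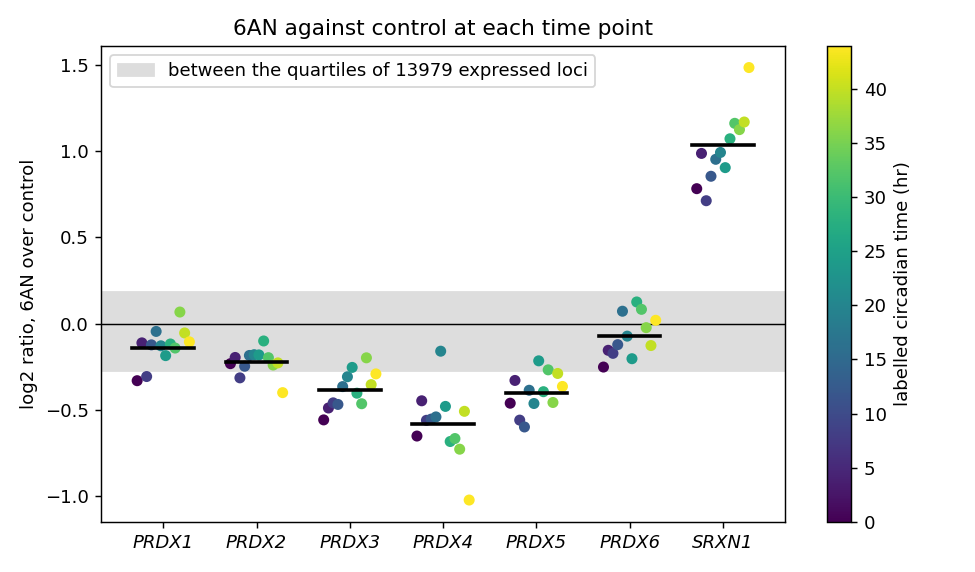
The log2 ratio of 6AN to control (y axis, no units) for each member, with 12 points per gene coloured by labelled circadian time in hr and a black bar for the ratio of the mean FPKM. The grey band spans -0.28 to 0.18, between the quartiles of the 13979 expressed loci; all *SRXN1* points lie above it, and the 2 outermost points of *SRXN1* and *PRDX4* (1.48 and -1.02) are both from CT 44.

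The summed FPKM of the 6 peroxiredoxins averaged 1335 ± 102 in control and 1127 ± 54.4 in 6AN cells, lower at all 12 time points, a level set across the 2 tables. Ratios within a library do not depend on the scaling of the tables. Within the sum the share of *PRDX1* was 43.8% ± 3.62 in control and 47.2% ± 2.81 in 6AN cells, and that of *PRDX4* was 6.51% ± 0.710 and 5.10% ± 0.500. The share of *PRDX6* was 9.01% ± 0.547 and 10.2% ± 0.672 (SD over time points, n = 12 libraries each). *SRXN1* per 100 FPKM of *PRDX1* to *PRDX4*, the mRNAs of its substrates, was 2.96 ± 0.328 in control and 7.18 ± 1.75 in 6AN cells. Its lowest, median and highest values were 2.55 (CT 12), 2.93 and 3.47 (CT 40) in control, against 5.42 (CT 12), 6.64 and 11.5 (CT 44) in 6AN cells, and the ranges did not overlap. This within-library ratio rose with labelled time in both conditions (Spearman's rho 0.84 in control and 0.84 in 6AN cells, not tested).

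**Figure D3:**
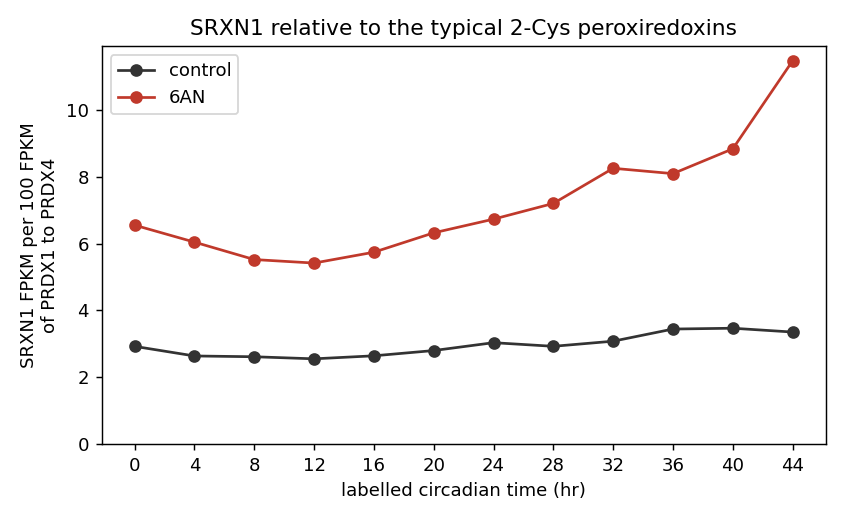
*SRXN1* FPKM per 100 FPKM of *PRDX1* to *PRDX4* (y axis, from 0) against labelled circadian time in hr (x axis), with 1 library per point. The lowest value in 6AN cells (5.42) is above the highest in control cells (3.47), and the 6AN series reaches 11.5 at CT 44. Both series rise with labelled time (Spearman's rho 0.84 in each).

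A monotone change over the labelled time was tested within each condition, by Spearman's rho against random orders of the time points, with Benjamini-Hochberg adjustment over all 13979 expressed loci. *PRDX1* fell in control cells. It averaged 644 FPKM from CT 0 to CT 20 and 530.0 from CT 24 to CT 44 (rho -0.92, permutation adjusted p = 0.0073, Pearson's r -0.88 with permutation p = 0.00011). Without CT 0 and CT 44, r was -0.86. Falling trends were called for 2.29% of loci in control cells and rising ones for 2.19%, and no other member was called there. *PRDX4*, with rho 0.67, had a permutation adjusted p of 0.165.

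In 6AN cells, *PRDX1* fell and *PRDX5* and *SRXN1* rose. *PRDX1* went from a mean of 568 FPKM in the first 6 time points to 498 in the last 6 (rho -0.77, permutation adjusted p = 0.0298, r -0.80 with permutation p = 0.0023). *PRDX5* went from 239.6 to 273 (rho 0.84, permutation adjusted p = 0.0116, r 0.86 with permutation p = 0.00049). *SRXN1* went from 47.2 to 60.4 (rho 0.73, permutation adjusted p = 0.0434, r 0.73 with permutation p = 0.0065). Without CT 0 and CT 44, r was -0.67 for *PRDX1*, 0.80 for *PRDX5* and 0.85 for *SRXN1*.

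In 6AN cells falling trends were called for 11% of loci and rising trends for 10.4%, so 3 called members of 7 is read beside a background of that size. The fall of *PRDX1* in control and the rise of *PRDX5* in 6AN cells were called without any single time point. The call for *PRDX1* in 6AN cells was lost without CT 0, CT 4, CT 12, CT 20, CT 24, CT 40 or CT 44 (adjusted p from 0.0527 to 0.0977). That for *SRXN1* was held only without CT 0 (adjusted p = 0.0083) and was lost without each other time point (adjusted p from 0.0545 to 0.119) and over all loci above 0 FPKM (0.0672).

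Whether the time course differed between conditions was tested on the log2 ratio at each time point, a test across both tables, chosen after the values had been seen. The ratio of *SRXN1* rose, from 0.78 at CT 0 and 0.71 at CT 8 to 1.17 at CT 40 and 1.48 at CT 44 (rho 0.88, permutation adjusted p = 0.0132, r 0.86 with permutation p = 0.00012, and r 0.80 without CT 0 and CT 44). Rising ratios were called for 3.37% of loci. *SRXN1* was 1.72-fold control at CT 0 and 2.80-fold at CT 44. The call held without any single time point (adjusted p from 0.0106 to 0.0451), but not with equal FPKM totals (rho 0.71, adjusted p = 0.0783). No other member was called, the nearest being *PRDX3* (rho 0.72, permutation adjusted p = 0.0863).

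No member was called rhythmic. The umbrella test was a rank permutation test after the RAIN method for rise and fall over 24 hr. It called 0.937% of loci in control and 1.02% in 6AN cells at p of at most 0.01. These shares are about what the threshold gives without any rhythm, and 0 loci passed adjustment in either condition. The paper called more transcripts with RAIN itself at this threshold, so the absence of called members carries little weight. For the 7 members p ran from 0.0616 to 0.876 in control and from 0.212 to 0.901 in 6AN cells, so that 0 had an unadjusted p under 0.05. Harmonic regression at 24 hr likewise gave 0 members under 0.05 in either condition. *PRDX5* in control cells had the smallest p by both methods (0.0616 and 0.0524 by permutation and harmonic regression), with a fitted amplitude of 0.15 on the log2 scale and a peak at CT 13.9. Its 2 highest control values, 413 and 391.5 FPKM, were at CT 12 and CT 36, a day apart. The fitted amplitudes of the members lay between 0.03 and 0.15 (log2) in both conditions, beside a median of 0.07 (control) and 0.08 (6AN) over all loci. The smallest amplitude that this design could detect was not determined.

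The members did not follow each other closely. Over 24 libraries, with log2 values centred within each condition, Pearson's r between members ran from -0.38 (*PRDX1* with *PRDX5*) to 0.64 (*PRDX3* with *PRDX6*), with a median of 0.35 over 21 pairs. These points share library composition and scaling, and the values are descriptions. The expressed single-gene loci most like each member, by the same measure, were *TAGLN2* (0.92) and *PGAM1* (0.90) for *PRDX1*, and *DRAP1* (0.84) and *COX6A1* (0.82) for *PRDX2*. They were *ACSL3* (0.76) and *STRAP* (0.71) for *PRDX3* and *COX7A2* (0.74) and *PHF23* (0.74) for *PRDX4*. Among those most like *PRDX5* was *GPX1* (0.90), a glutathione peroxidase gene, and *PRDX6* was most like *CCT5* (0.82) and *RPN2* (0.82). *SRXN1* was most like *EIF3D* (0.86) and *FTH1* (0.83), the ferritin heavy chain gene.

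The list for the thioredoxin system, which supplies electrons to the 2-Cys peroxiredoxins, held genes of both directions. It also held glutaredoxin (*GLRX*) and sestrin (*SESN*) genes, which are not part of that system but are included in its counts. Of 16 listed genes 15 were expressed, with 4 higher and 4 lower in 6AN cells at all 12 time points (13% and 20.4% of all loci) and a median log2 ratio of 0.04 (-0.04 over all loci). *TXN*, the cytosolic thioredoxin, had means of 145 ± 8.11 FPKM in control and 120.3 ± 8.55 in 6AN cells (log2 ratio -0.27). *TXNRD1*, the cytosolic NADPH-dependent reductase, had 71.1 ± 7.42 and 99.2 ± 10.6 (0.47), and its mitochondrial relative *TXNRD2* had 40.3 ± 4.69 and 33.7 ± 2.52 (-0.25). *TXNIP*, the thioredoxin-binding inhibitor, had 23.9 ± 11.4 and 92.9 ± 7.14 (1.92), with ranges that did not overlap. The others were *GLRX* (0.39) and *SESN2* (0.60), which were higher, and *GLRX5* (-0.37) and *TXNDC17* (-0.66), which were lower.

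Trends were called for 1 rising gene (*TXNIP*, rho 0.89) and 1 falling gene (*TXNRD2*, rho -0.84) of this list in control cells (2.19% and 2.29% of all loci). In 6AN cells they were called for 4 rising genes (*TXNRD1*, *GLRX3*, *SESN1* and *SESN2*) and 0 falling (10.4% and 11% of all loci), with *SESN2*, a stress-induced sestrin, at rho 0.97 (permutation adjusted p = 0.00046). No gene of this list was called rhythmic in either condition.

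Enzymes that dispose of peroxide or superoxide by other routes held genes of either direction. Of 11 listed 9 were expressed, 2 higher and 3 lower at all 12 time points (13% and 20.4% of all loci), with a median log2 ratio of -0.20. Catalase (*CAT*) had 33.3 ± 2.98 FPKM in control and 19.9 ± 2.83 in 6AN cells (-0.72), and *SOD1* 481 ± 31.6 and 375 ± 19.4 (-0.36), neither with overlapping ranges. *GPX8*, a peroxidase of the endoplasmic reticulum like *PRDX4*, had a log2 ratio of -0.44, also without overlap. *GPX4*, which reduces lipid peroxides, had 348 ± 29.8 and 474 ± 44.2 (0.44), and *GSR*, the glutathione reductase that uses NADPH, 27.1 ± 1.48 and 36.2 ± 3.88 (0.41). Of the 9 expressed, 3 had a 6AN range below that of control (10.3% of all loci) and 1 (*GSR*) a range above it (5.89%).

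*SRXN1* is a known target of NRF2, and 15 of 18 other listed NRF2 targets were expressed. Of these 7 were higher and 3 lower in 6AN cells at all 12 time points (13% and 20.4% of all loci), with a median log2 ratio of 0.18 (-0.04 over all loci). *OSGIN1* (1.13), *SLC7A11* (0.95), *GCLC* (0.75), *FTH1* (0.72), *SQSTM1* (0.53), *TXNRD1* (0.47) and *PGD* (0.36) were higher. *NQO1* had 40.9 ± 7.64 FPKM in control and 20.6 ± 3.0 in 6AN cells (-0.96), and *TALDO1* (-0.34) and *ME1* (-0.33) were also lower. *HMOX1* had means of 32.5 in control and 32.4 in 6AN cells. *SRXN1*, at 1.03, lay between *OSGIN1* and *SLC7A11*.

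At the chromatin level, *PRDX1* was the 1 member of 7 with a called BMAL1 or CLOCK peak within 10 kb of its start. Counted instead from either end of the locus, *PRDX1* and *PRDX2* had one, 2 of 7, beside 28.7% of expressed loci, so the members' count is near the background. At *PRDX1*, a merged interval at chr1:45521740-45522027 (hg38), annotated by the authors as promoter, held a BMAL1 and a CLOCK peak in 6AN cells and neither in control cells. The corresponding shared site, chr1:45521383-45522383, lay 55 bp from an annotated start and was 1 of 439 shared BMAL1/CLOCK sites in 6AN cells. None of 147 shared sites in control cells was assigned to a member. The nearest called interval was 10.4 kb away for *PRDX2*, 40.7 kb for *PRDX5*, 191 kb for *SRXN1*, 379 kb for *PRDX6*, 424 kb for *PRDX3* and 16069 kb for *PRDX4*.

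BMAL1 signal at the *PRDX1* site, in tags per 10000000, was 22.1 in control and 39.3 in 6AN cells, and CLOCK signal was 36.8 and 49.4. Input chromatin at the same place was 12.8 and 20.7. The 6AN values rested on about 31.0 BMAL1 and 22.5 CLOCK tags, and the control values on about 16.5 and 15.0. Relative to input, BMAL1 was 1.73 in control and 1.89 in 6AN cells, and CLOCK was 2.88 and 2.39. Input itself rested on about 42.5 tags in control and on fewer than the 22.5 CLOCK tags in 6AN cells. With so few tags from single libraries, the direction of either change over input is not determined. The median ratios to input over the sites were 2.80 in control and 3.03 in 6AN cells for BMAL1. For CLOCK they were 2.91 and 4.48. Among the 439 sites the log2 change of *PRDX1* ranked 117 for BMAL1 (0.80, median 0.46) and 394 for CLOCK (0.42, median 1.10).

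Both histone marks of active promoters were strong at the *PRDX1* site. H3K4me3 was 523 in control and 476 in 6AN cells, which ranked 22 and 25 of 439 sites, and H3K9ac was 206 and 203, which ranked 45 and 51. Their log2 changes were -0.14 and -0.02. These are single libraries, and the site was chosen by the caller on the same BMAL1 and CLOCK libraries, so no test is given.

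**Figure D4:**
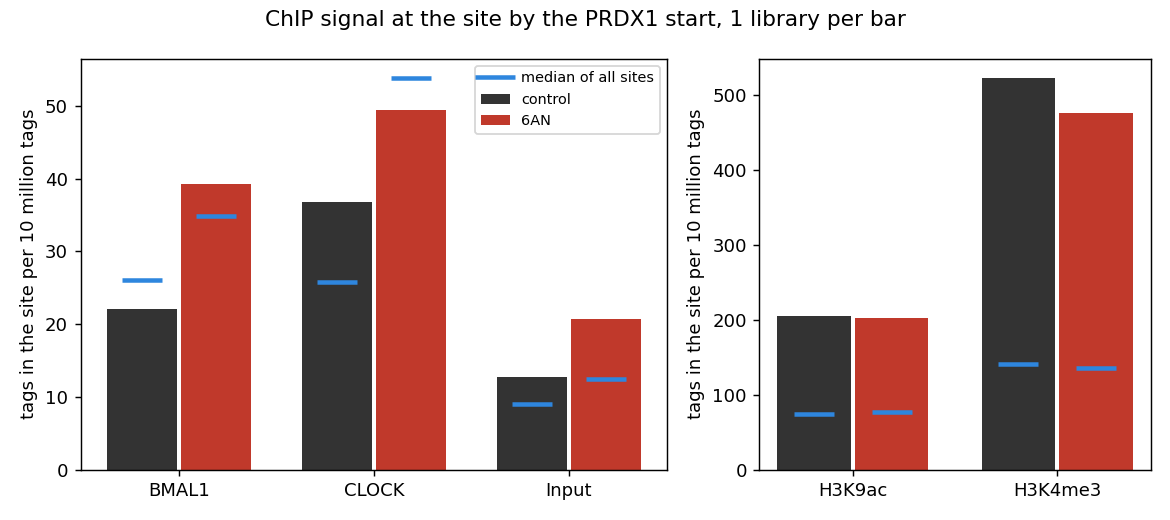
ChIP-seq signal (y axis, tags in the 1000 bp site per 10000000 tags of the library, bars from 0) at the *PRDX1* site for BMAL1, CLOCK and input (left) and for H3K9ac and H3K4me3 (right), with 1 library per bar, control in black and 6AN in red; blue marks give the median of the 439 sites. Input rises with BMAL1 and CLOCK (12.8 to 20.7), and both histone marks are far above their medians in both conditions.

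The loci, on hg38, were *PRDX1* at chr1:45500183-45522890, *PRDX2* at chr19:12796819-12801910, *PRDX3* at chr10:119167698-119178865, *PRDX4* at chrX:23667527-23686397, *PRDX5* at chr11:64318087-64321823, *PRDX6* at chr1:173477346-173488807 and *SRXN1* at chr20:646623-653370. The *PRDX1* locus was overlapped by 1 other, *MMACHC*, at 8.80 ± 1.14 FPKM in control and 5.09 ± 0.533 in 6AN cells. Whether counting used strand is not given in the sources used here, so reads of these genes may be shared, as may reads of the processed copies that RefSeq lists for several members.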

How the data were processed

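The 24 RNA-seq and 10 ChIP-seq libraries were grouped by their labels. The authors deposited FPKM per locus (hg38, with TopHat, Bowtie and Cufflinks in the submitters' processing notes, versions not given in the sources used here). There was 1 table per condition, each probably normalized on its own, so levels were tested within a table only. The exception is the trend of the log2 ratio over time, in which a constant factor between the tables cancels but a factor that differs from library to library does not. For ChIP-seq (Bowtie2 and HOMER in the same notes) the authors deposited the signal in each shared site, scaled to 10000000 tags per library, and a peak score for each merged interval, which was not used for any value. Peaks were called per library. RNA was extracted in triplicate, and whether triplicates were pooled is not stated, so p-values measure the spread over time points of 1 series of libraries. The number of sample columns not used was 0.

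The software was SciPy 1.17.1, pandas 2.3.3 and NumPy 2.4.6 under Python 3.11.15, with figures by matplotlib 3.10.9. A pseudocount of 1 preceded logarithms (0.1 as an alternative), so log2 ratios understate the change of low genes. The trend test was a two-sided rank test, and the umbrella test an upper-tail rank test on the best of 18 shapes. Both used 1000000 random orders of the time points, or 200000 with 1 time point left out. They were tried on simulated data with planted 24 hr rhythms and planted trends larger than each locus's own spread over time. Smaller effects were not covered by that trial. The start used for peak distances was that of the RefSeq window or, for *PRDX1* and *PRDX6*, the nearer end of the locus. Genes named are the 7 members, the lists where described and, for each member, the 2 expressed single-gene loci of highest correlation, of which 1 is not reported here. The members and gene lists were chosen with earlier results of these data known.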

Additional observations from a re-analysis of the deposited data

Results flagged for a closer look

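The time course of *SRXN1* may differ between conditions. In a test chosen after the values had been seen, the log2 ratio of 6AN to control rose with labelled time (Spearman's rho 0.88, permutation adjusted p = 0.0132 over 13979 loci), while *SRXN1* itself had rho 0.33 in control and 0.73 in 6AN cells. The call was lost when libraries were rescaled to the same FPKM total (rho 0.71, permutation adjusted p = 0.0783). The log2 ratio was positive at 12 of 12 time points. *SRXN1* per 100 FPKM of *PRDX1* to *PRDX4*, which does not depend on the scaling of the tables, rose in both conditions (rho 0.84 in each, not tested). The groups held 12 libraries each, so single libraries far from the others were not searched for.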

How the results depend on the processing

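Of 354 values recomputed, 317 kept their direction and side of the threshold or moved less than the spread, 20 lost a call, 17 moved and 0 reversed. The count of members rhythmic at 24 hr was 0 in control and in 6AN cells under harmonic regression and at p of at most 0.05. It was also 0 with the linear trend removed and, by either method, without any single time point. The number with a trend in 6AN cells (3) lay between 1 and 2 with any single time point left out, and was 1 without CT 4, CT 12, CT 20, CT 24, CT 40 or CT 44. That for control (1) stayed at 1. With each library rescaled to the same FPKM total, chosen after seeing the data, the rise of the *SRXN1* ratio had rho 0.71 and lost its call (permutation adjusted p = 0.0783), whereas scaling by the median of each time point kept it (0.0208), and the log2 ratios of *PRDX1*, *PRDX2*, *PRDX3*, *PRDX5* and *PRDX6* moved to -0.32, -0.41, -0.57, -0.59 and -0.26. The number of members with a 6AN range below that of control (2) was 4 with equal FPKM totals. It was 1 (*PRDX3*) when centred on the median of all loci. Without single time points it lay between 2 and 3, *PRDX5* being added without CT 4. The share of all loci with such a range is not given for these alternatives. A window of 50 kb instead of 10 kb put a BMAL1 or CLOCK interval near 3 members, 1 kb near 1, and counting from either end of the locus near 2. The cause was not tested. The labels give no replicate numbers, so no replicate block could be fitted, and control and 6AN libraries were matched by time point in the log2 ratios only.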
